A study of Mus musculus with 80 samples.

Results

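The level of H3K9me2, dimethylated lysine 9 of histone H3, was measured at the starts of autosomal mouse genes and read against how strongly each gene was expressed. A gene start was the first base of the gene on its own strand as given in the expression table, and its H3K9me2 value was that of the 2-kb bin of the ChIP-seq table that held it. Of 24483 autosomal genes among 25965 genes in all, 22043 had a start in a listed bin, and these starts fell in 20419 different bins of 995960 autosomal bins. Genes were ranked by their mean expression over the 3 serum RNA-seq samples and divided into 4 quartiles of 6120 or 6121 genes, of which 5233 in the lowest, 5368 in the second, 5655 in the third and 5787 in the highest had a listed start bin. The rule used expression and position and no H3K9me2 value, but it was set with earlier results of these data known.

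The cells were mouse embryonic stem cells (ESCs) of the wild-type line E14, a single line with no transgene or deletion named in the labels. Serum ESCs were grown in medium with fetal calf serum and leukemia inhibitory factor (LIF). The 2i medium is free of serum and holds LIF with an inhibitor of the kinase MEK (PD0325901) and one of the kinase GSK3 (CHIR99021). H3K9me2 was immunoprecipitated from serum ESCs, from ESCs after 24 h in 2i and from long-term 2i ESCs (LT2i), with 2 bound libraries and 1 input library of unprecipitated chromatin in each condition. RNA-seq covered serum and 6, 24 and 72 h of 2i with 3 samples each, in separate samples from the ChIP-seq, and expression in LT2i was not analysed here. The study calls the replicates of its expression measurements biological, but the labels do not say whether the ChIP-seq replicates were separate cultures, so p-values over those libraries measure the spread between these samples, which may be technical.

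H3K9me2 is written mainly by the paired methyltransferases G9a (Ehmt2) and GLP (Ehmt1) and removed by demethylases of the Kdm3 and Kdm4 families. It covers long silent stretches of chromatin and is bound by silencing proteins and by UHRF1, which brings the maintenance DNA methyltransferase DNMT1 to replicating DNA. Active promoters, and most CpG islands whether active or not, are known to lie in gaps of the mark.

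Promoters of 4 genes show the sequence range behind the values below. Each stretch is the 250 bases before the start in the RefSeq promoter table (GRCm38.p6), read 5′ to 3′ on the strand of the gene, and lies inside the 2-kb bin that was measured. Capitals mark CG, the dinucleotide that is methylated in mouse DNA. Klf2, a transcription factor of naive pluripotency, was highly expressed (chr8:72318812-72319061, plus strand). Olig2, a transcription factor of neural and oligodendrocyte progenitors, was in the lowest quartile and classed as without serum RNA reads by the rule given below (chr16:91225300-91225549, plus strand). Asz1, a germ cell protein of the piRNA pathway, was in the lowest quartile (chr6:18109062-18109311, minus strand), as was Alb, the gene of serum albumin (chr5:90460620-90460869, plus strand).
Klf2: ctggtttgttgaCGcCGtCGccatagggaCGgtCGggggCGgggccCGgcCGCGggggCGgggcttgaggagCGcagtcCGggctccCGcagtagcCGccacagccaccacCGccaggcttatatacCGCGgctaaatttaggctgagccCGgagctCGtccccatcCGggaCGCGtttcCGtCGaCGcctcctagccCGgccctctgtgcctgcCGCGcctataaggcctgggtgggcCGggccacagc
Olig2: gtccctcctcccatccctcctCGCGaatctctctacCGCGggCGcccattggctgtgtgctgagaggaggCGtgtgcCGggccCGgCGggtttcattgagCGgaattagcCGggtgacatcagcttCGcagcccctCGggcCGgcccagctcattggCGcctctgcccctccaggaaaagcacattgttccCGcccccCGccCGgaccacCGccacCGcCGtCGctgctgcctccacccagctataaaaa
Asz1: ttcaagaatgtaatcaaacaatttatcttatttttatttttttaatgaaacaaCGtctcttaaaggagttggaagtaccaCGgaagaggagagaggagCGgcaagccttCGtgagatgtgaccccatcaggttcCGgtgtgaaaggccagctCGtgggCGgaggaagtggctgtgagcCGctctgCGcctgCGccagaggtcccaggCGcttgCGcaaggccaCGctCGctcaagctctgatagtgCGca
Alb: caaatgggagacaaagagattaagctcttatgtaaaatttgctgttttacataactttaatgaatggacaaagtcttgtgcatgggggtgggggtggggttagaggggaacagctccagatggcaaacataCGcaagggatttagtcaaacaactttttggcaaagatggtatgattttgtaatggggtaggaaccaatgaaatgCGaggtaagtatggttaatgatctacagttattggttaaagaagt
The printed stretches hold 29 CG in Klf2, 22 in Olig2, 15 in Asz1 and 2 in Alb. At least 1 CG was found in 96.1% of the 12947 promoters matched to a start and in 94.6% of the 32851 promoters of the same length (300 bases, 250 before and 50 after the start) in the table. The bin of Klf2 held 1 and 0 reads in the serum libraries and that of Olig2 2 and 2, against 26 and 18 at Asz1 and 34 and 32 at Alb. The 3 genes of the lowest quartile thus stood on both sides of a large difference in H3K9me2, with few reads at the CpG-dense Olig2 start and many at the CpG-dense Asz1 and the CpG-poor Alb starts.

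Between 14396552 and 23785128 reads were counted per library, which left a mean of 14.2 to 19.1 reads per autosomal bin in the bound libraries. Replicates correlated at r = 0.907 (serum), 0.892 (24 h) and 0.907 (LT2i) over the 22043 starts. Every bin in the table held at least 8 scaled reads in each input, so the 2440 starts without a listed bin were not measured. All 6 ESC markers (Pou5f1, Nanog, Sox2, Zfp42, Esrrb, Dppa5a) were in the highest quartile of expression. The summed level of 8 feeder fibroblast markers ran from 4.84 to 4.88 on the deposited log2 scale in serum and from 3.44 to 3.87 at 24 h, and that of 5 primitive endoderm markers from 2.05 to 2.12 in serum and from 1.73 to 1.81 at 24 h, against 10.3 to 10.6 for the ESC markers in serum. Of the 8 fibroblast markers, Acta2 was in the highest quartile, Col1a1, Col1a2 and Thy1 in the third, Col3a1 in the second and Postn, Lum and Dcn in the lowest, and of the 5 primitive endoderm markers Gata4, Gata6, Dab2 and Pdgfra were in the third and Sox17 in the second. The part of other cells in any result was not tested. ChIP-seq reads are relative within a library, so the values below place gene starts against the rest of the genome and do not measure the total amount of H3K9me2. In these bulk samples, fewer cells carrying the mark and less mark per cell cannot be told apart.

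H3K9me2 at gene starts fell in steps from the lowest to the highest quartile of expression, in each of the 6 bound libraries. Levels are given first as reads per start bin in percent of the library's autosomal mean, where 100 is the average bin. The lowest quartile stood at 88.8 and 84.8% in serum, 87.3 and 87.1% at 24 h and 81.9 and 79.6% in LT2i. The highest quartile stood at 14.5 and 13.4% in serum, 16.2 and 16.3% at 24 h and 14.4 and 13.8% in LT2i. No library of the highest quartile came near any library of the lowest. The second quartile lay at 62.3 and 57.4% in serum, 61.1 and 60.2% at 24 h and 51.7 and 49.1% in LT2i, and the third at 25.3 and 23.4%, 27.3 and 26.8%, and 23.0 and 21.9%. Inputs gave 102% (serum), 101% (24 h) and 99.4% (LT2i) in the lowest quartile and 106%, 103% and 99.8% in the highest, so the unprecipitated chromatin was nearly level. At 14% of the mean, a start bin of the highest quartile held 2.14 to 2.76 reads in the bound libraries, and 34.2 to 46.0% of these starts had no read, against 3.52 to 8.56% in the lowest quartile.

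**Figure D1:**
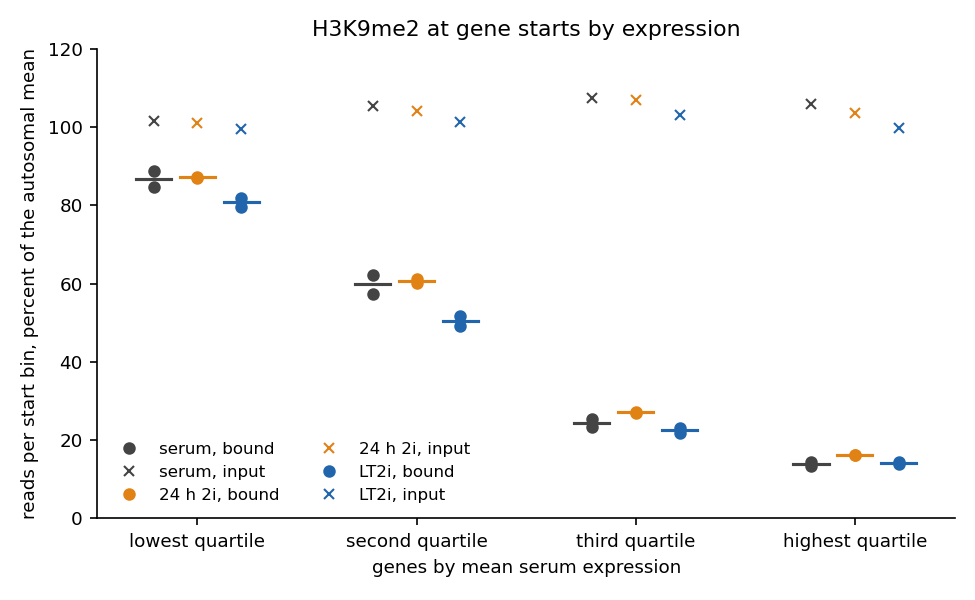
Reads per start bin as percent of the library's autosomal mean (y axis) by quartile of serum expression (x axis). Dots are single bound libraries, bars are the mean of 2, and crosses are the 1 input of each condition; the bound libraries step down from between 79.6 and 88.8% in the lowest quartile to between 13.4 and 16.3% in the highest while the inputs stay near 100%.

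For the test, enrichment was the log2 value of a bound library minus that of the input of its condition, centred on the autosomal median of that library. An SD over the 6 libraries spans the 3 conditions and includes differences between them, and the 2 libraries of a condition share 1 input. The highest quartile was lower than the lowest by -2.77 and -2.71 in serum, -2.39 and -2.40 at 24 h and -2.40 and -2.26 in LT2i. The mean difference was -2.49 ± 0.20 (SD, n = 6 libraries), or 5.61 times lower, with an exact two-sided sign-flip p of 0.03125, the smallest that 6 libraries allow, and 0.03125 after Benjamini-Hochberg adjustment over 10 tests. Each step between neighbouring quartiles had the same sign in all 6 libraries and the same exact p (0.03125, adjusted 0.03125). The steps were -0.88 ± 0.08 from the lowest to the second quartile, -1.19 ± 0.13 from the second to the third and -0.41 ± 0.10 from the third to the highest (SD, n = 6). The third step was the smallest of the 3. With 4 scaled reads added to every bin before the logarithm the highest minus lowest difference was -1.48, and with quartiles made only of genes with serum reads it was -1.40, in the same direction in both.

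The lowest quartiles were mixtures. Of their starts, 66.7% in the lowest and 39.8% in the second quartile belonged to genes with no read in any serum RNA-seq sample, against 0.831% in the third and 1 start in the highest. When all starts were placed on a scale of expression, the 5676 starts of genes without serum reads lay near the genome mean, at 97.0 and 93.1% in the serum libraries. The 2024 starts of genes with reads but a mean under -4 (deposited log2 value) lay at 62.1 and 55.8%, and the 2177 between -2 and 0 at 34.2 and 31.1%. Starts between 2 and 4 (4138) stood at 15.7 and 14.4%, those between 4 and 6 (2264) at 13.6 and 12.7%, those between 6 and 8 (522) at 13.8 and 12.8%, and those at 8 or more (86) at 13 and 11.4%. The level thus dropped over the silent and weakly expressed genes and then stayed within about the same range above a mean of 4. As a description over the 22043 starts of 1 library each, with depth and bins shared, the rank correlation of serum expression with enrichment was -0.56 and -0.55 in serum, -0.52 and -0.52 at 24 h and -0.47 and -0.46 in LT2i, and 0.00 to 0.05 with the inputs. Among genes without reads the order was set by gene length, since the deposited values were corrected for length. Starts of such genes stood at 100.0% in the lowest and 87.1% in the second quartile (mean of 2 serum libraries). Starts of genes with serum reads stood at 60.2 and 41.9% in these quartiles. The tested step from the lowest to the second quartile thus includes this ordering by length.

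The CpG content of the promoter split each quartile again. Promoters were classed by the ratio of observed to expected CG over the 300 bases as CpG-rich (0.6 or more), intermediate, or CpG-poor (under 0.4), for the 12947 starts (58.7%) that matched a RefSeq promoter by symbol within 1000 bp. CpG-rich promoters made up 13.8% of matched starts in the lowest quartile, 32.5% in the second, 71.5% in the third and 86.0% in the highest. In the lowest quartile, the 431 CpG-rich starts stood at 30.1 and 27.2% of the genome mean in serum, the 350 intermediate starts at 70.7 and 63.0%, and the 2336 CpG-poor starts at 104 and 102%. In the highest quartile the 3332 CpG-rich starts lay at 9.88 and 8.87% and the 174 CpG-poor starts at 30.6 and 28.6%, so the highest quartile's CpG-poor starts and the lowest quartile's CpG-rich starts had almost equal levels in serum. In LT2i they stood apart, with 19.9 and 18.5% at the former and 31.4 and 28.1% at the latter. Enrichment at CpG-rich starts of the lowest quartile was lower than at its CpG-poor starts by -2.28 and -2.36 in serum, -2.24 and -2.22 at 24 h and -2.05 and -2.02 in LT2i. The mean was -2.19 ± 0.13 (SD, n = 6), 4.57 times lower, with an exact sign-flip p of 0.03125 (adjusted 0.03125). The classes also differed in expression, since 36.2% of the CpG-rich and 77.1% of the CpG-poor starts belonged to genes with no serum reads. Among genes without serum reads, the 156 CpG-rich starts stood at 37.8 and 33.2% in serum and the 1801 CpG-poor starts at 108.7 and 108.5%, and with quartiles made only of genes with serum reads the difference in enrichment was -1.62.

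**Figure D2:**
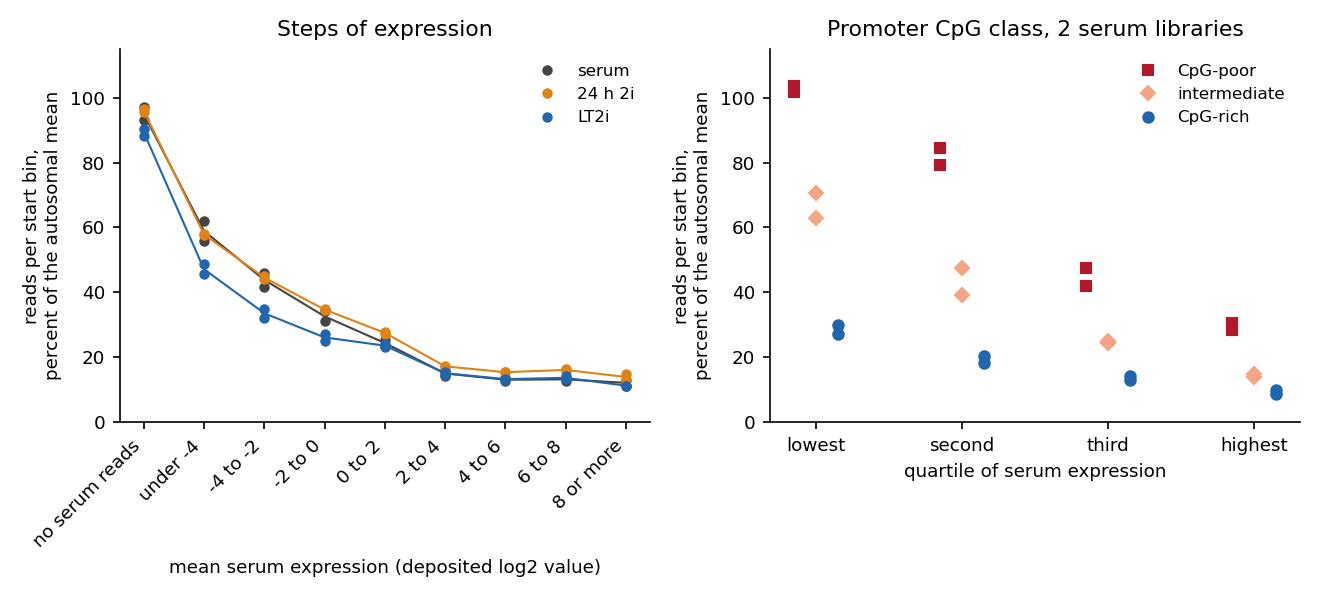
Left, reads per start bin in percent of the autosomal mean (y axis) by step of mean serum expression (x axis), with a dot for each bound library and lines through the means of 2. Right, the 2 serum libraries by quartile and promoter CpG class; CpG-poor starts fall from 104 and 102% to 30.6 and 28.6% across the quartiles and CpG-rich starts from 30.1 and 27.2% to 9.88 and 8.87%.

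CpG-poor starts were lower in LT2i than in serum in each quartile. Those of the highest quartile stood at 19.9 and 18.5% against 30.6 and 28.6% in serum, those of the third at 31.7 and 29.0% against 47.4 and 42.1%, and those of the second, of which 47.5% belonged to genes without serum reads, at 69.9 and 65.8% against 84.5 and 79.2%. The CpG-poor starts of the lowest quartile, at 97.9 and 96.5%, moved least in proportion. Among them, the 1801 of genes without serum reads stood at 107.9 and 106.7% in LT2i against 108.7 and 108.5% in serum, and the 535 of genes with serum reads at 64.4 and 62.0% against 86.6 and 78.4%. CpG-rich starts of the lowest quartile (31.4 and 28.1%, against 30.1 and 27.2% in serum) and of the highest (10.6 and 10.05%, against 9.88 and 8.87%) did not fall below their serum levels in the mean. Those of the second were lower in the mean, with overlap (18.8 and 17.2%, against 20.5 and 18.2%), and those of the third about level (14.3 and 13.4%, against 14.4 and 13.1%). Intermediate starts were also lower in the lowest quartile (63.0 and 60.4%, against 70.7 and 63.0%) and the second (39.7 and 35.8%, against 47.5 and 39.4%), with smaller differences in the third and highest. Libraries of serum and LT2i did not overlap in the CpG-poor class of any of the 4 quartiles, and with 2 against 2 libraries no exact test could give a p below 0.333.

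Around the start, H3K9me2 dipped in every quartile, most in the third and highest. Flanks were the bins 10 to 20 kb away on both sides. In serum the flanks lay at 98.2 and 96.4% of the genome mean in the lowest quartile, 82.4 and 78.9% in the second, 62.2 and 59.3% in the third and 45.5 and 43.3% in the highest, so the flanks of expressed genes were low as well. The start bin was below its flanks in log2 enrichment by -0.40 ± 0.03 in the lowest, -0.68 ± 0.08 in the second, -1.29 ± 0.30 in the third and -1.17 ± 0.39 in the highest quartile (SD, n = 6, exact sign-flip p = 0.03125 and adjusted 0.03125 for each). In the highest quartile the dip was -1.59 and -1.55 in serum, -1.23 and -1.25 at 24 h and -0.75 and -0.66 in LT2i, with no overlap between conditions. Its SD of 0.39 thus includes the differences between conditions. With 4 scaled reads added, the dip of the highest quartile was -0.59 on average.

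In serum and at 24 h the lowest bin of the highest quartile was the start bin, and its sides were not symmetric. In serum the mean of the highest quartile went from 52.4% at 20 kb upstream to 32.6% at 2 kb upstream, 14% in the start bin, 18.8% at 2 kb downstream, 26.8% at 4 kb and 42.1% at 20 kb downstream. The downstream side was lower than the upstream side at equal distance. Long genes were those of at least 20 kb with no other listed gene start within 20 kb of their start. Their bins downstream lie in the gene body, but the last can reach past the end of genes little longer than 20 kb. Bins upstream can lie in the body of a neighbouring gene that starts further away. For the 1689 such genes of the highest quartile, enrichment downstream minus upstream was -0.91 and -0.89 in serum, -0.97 and -0.97 at 24 h and -1.15 and -1.08 in LT2i. The mean was -1.0 ± 0.10 (SD, n = 6, exact sign-flip p = 0.03125, adjusted 0.03125). Long genes of the third quartile, chosen in the same way (1856), gave -0.24 to -0.57 over the libraries. Those of the second (1140) gave 0.06 to 0.12 and those of the lowest (1494) 0.07 to 0.09, with the opposite sign in every library. The difference between quartiles in this measure was not tested.

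The level also went with the place of the start within its bin. In the highest quartile, starts with under 500 bp of their bin downstream (1396) stood at 21.4 and 19.6% in serum, those with 500 to 1000 bp (1494) at 15.8 and 14.8%, those with 1000 to 1500 bp (1412) at 11 and 10.1%, and those with 1500 bp or more (1485) at 10.1 and 9.45%. Bins that reached further into the gene were the lower ones in both libraries. In LT2i the first of these classes lay at 20.7 and 19.7% and the last at 8.17 and 7.70%. The lowest quartile showed no such order, with 86.0 and 84.2% in the first class and 93.7 and 86.3% in the last.

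**Figure D3:**
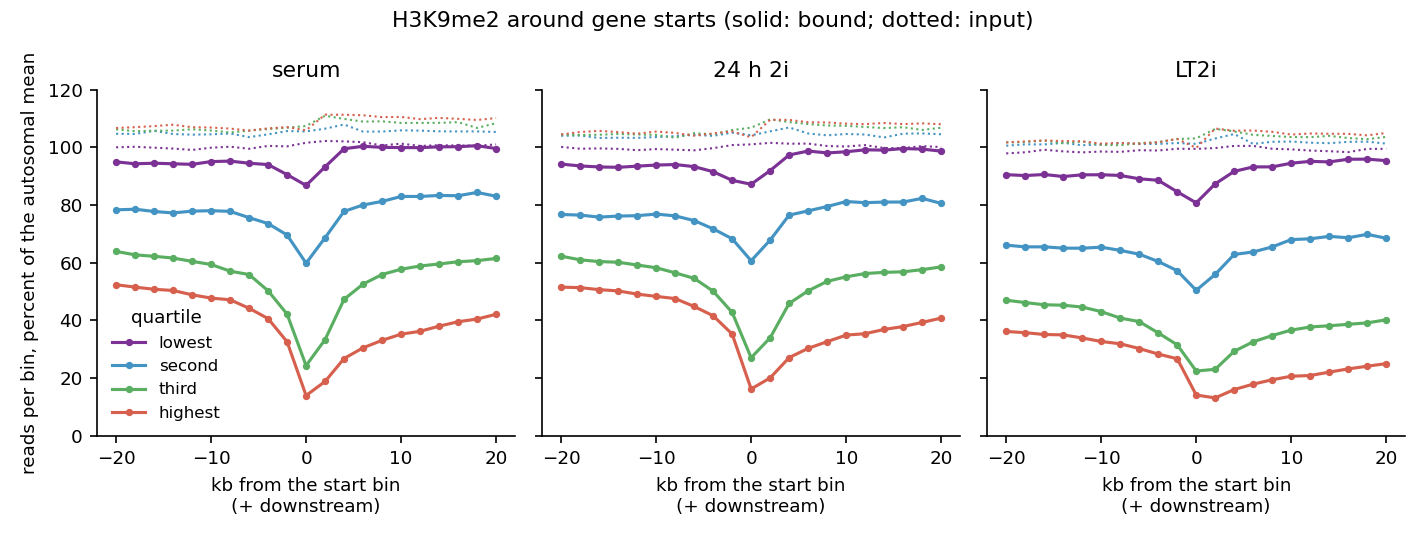
Mean reads per bin in percent of the autosomal mean (y axis) by distance from the start bin in kb, positive downstream (x axis), for the 4 quartiles in serum, 24 h 2i and LT2i. Solid lines are the mean of 2 bound libraries and dotted lines the input; in the highest quartile the start bin lies at 14, 16.2 and 14.1%, and in LT2i the bin 2 kb downstream (13.1%) is the lowest.

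After 24 h in 2i the pattern over the quartiles was close to that of serum. Start bins changed from 86.8 ± 2.85 to 87.2 ± 0.16% in the lowest quartile, from 59.8 ± 3.48 to 60.7 ± 0.66% in the second, from 24.3 ± 1.37 to 27.1 ± 0.31% in the third and from 14 ± 0.75 to 16.2 ± 0.03% in the highest (SD, n = 2). The libraries of serum and 24 h did not overlap in the third and highest quartiles and overlapped in the lowest and second. The highest minus lowest difference in enrichment was smaller by 0.35 at 24 h than in serum (exact permutation p = 0.333, the smallest that 2 against 2 allows), and 0.19 when a common floor for bins without reads was set in all libraries. A bin without reads was deposited as 0.9 reads and then scaled, so this floor lay at 0.14 and 0.19 in the serum libraries but at 0.55 and 0.50 in the 24 h libraries on the log2 scale, and log2 rises of nearly empty bins at 24 h include it. A limma test over all 995960 autosomal bins called no bin at 24 h (adjusted p under 0.05, 0.00% of all bins in either direction). At an unadjusted limma p under 0.05 were 1554 of 22043 starts and 68552 of the 995960 bins, about equal shares. In windows of 10 kb, limma called 1 start window lower and 8 higher of 21874, against 25 lower (0.0109%) and 76 higher (0.0332%) of all 229028 windows tested.

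In LT2i the flanks of the third and highest quartiles were lower relative to the genome than in serum, while the start bins of the highest quartile overlapped those of serum. The start bins of the third quartile were lower without overlap. In the highest quartile the flanks lay at 45.5 and 43.3% in serum, 43.7 and 43.8% at 24 h and 29.2 and 28.1% in LT2i, and in the third quartile at 62.2 and 59.3%, 58.5 and 58.4%, and 42.6 and 40.9%. Libraries of LT2i did not overlap those of serum or 24 h in these 2 quartiles. The mean difference between LT2i and serum in the flanks was -4.47 percentage points in the lowest quartile, -13.6 in the second, -18.9 in the third and -15.7 in the highest, and in the start bin -6.05, -9.41, -1.88 and 0.163. The second quartile was thus lower at both places, whereas the highest quartile was lower on its flanks with a start bin of 14.1 ± 0.41% in LT2i against 14 ± 0.75% in serum (SD, n = 2). At 2 to 4 kb downstream of highest-quartile starts the level was 23.4 and 22.2% in serum, 23.6 and 23.5% at 24 h and 14.8 and 14.3% in LT2i, where the start bin itself stood at 14.4 and 13.8%. The highest minus lowest difference in enrichment was smaller by 0.41 in LT2i than in serum (0.18 with means of linear reads, exact permutation p = 0.333 in both).

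**Figure D4:**
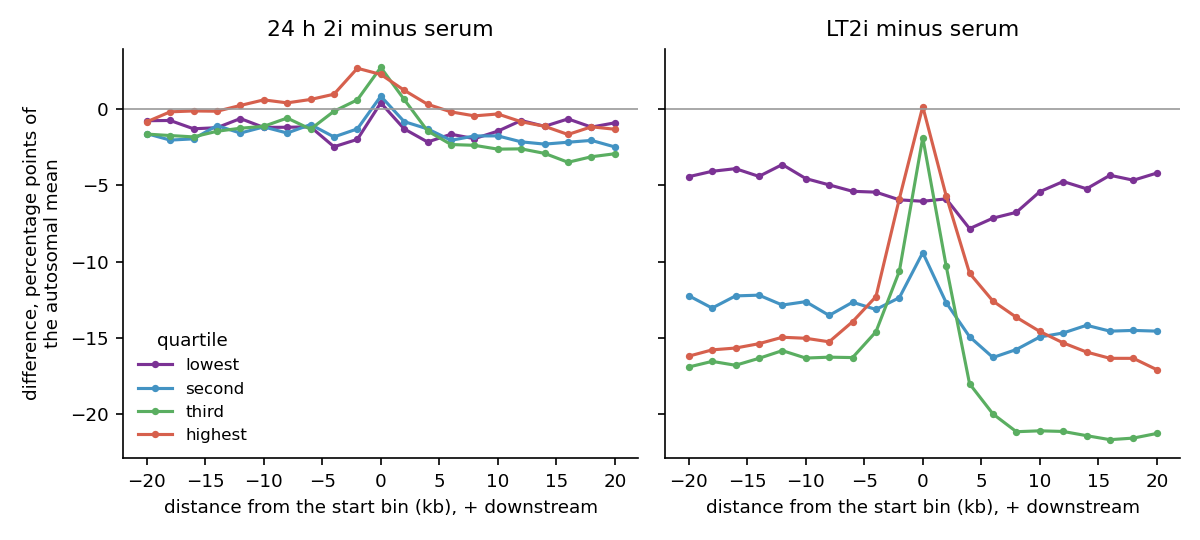
Difference in mean reads per bin between 2i and serum, in percentage points of the autosomal mean (y axis), by distance from the start bin in kb (x axis), for 24 h (left) and LT2i (right), each line 1 quartile. At 24 h all quartiles stay close to 0, with 2.73 and 2.27 at the start bin of the third and highest quartiles; in LT2i the highest quartile goes from 0.163 at the start bin to lower values on both sides, with 36.2% in LT2i against 52.4% in serum at 20 kb upstream.

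The limma test of LT2i against serum, on the bound log2 values of all bins with the 6 bound libraries in 1 fit, called 1103 starts lower (5.00% of 22043, against 6.34% of all autosomal bins) and 549 higher (2.49%, against 5.60%). In distinct bins these were 1069 lower and 523 higher of 20419. Both shares were under the background of all bins in this fit. Lower starts were 409 in the lowest quartile (7.82%), 437 in the second (8.14%), 172 in the third (3.04%) and 85 in the highest (1.47%), and higher starts 197, 130, 114 and 108. Start bins held a mean of 6.19 to 8.87 reads over all starts and 2.14 to 2.76 in the highest quartile. The lowest quartile held 12.3 to 16.9, and all autosomal bins 14.2 to 19.1. Bins with few reads can hardly be called lower, so these shares do not compare the size of a fall. The direction of the split depended on the scaling: after quantile normalization 56 starts were lower (0.254%, against 0.477% of all bins) and 82 higher (0.372%, against 0.201%). Without variance trend 907 were lower (4.11%, against 4.83%) and 269 higher (1.22%, against 0.617%), so the share of higher starts was above the background in these 2 fits. From the lowest to the highest quartile, higher starts then numbered 11, 14, 27 and 30 (quantile normalization) and 38, 42, 97 and 92 (without trend), so that the upper quartiles then held more of them than the lower ones. In windows of 10 kb around the start, which hold more reads, 6476 of 21874 windows (29.6%, against 26.0% of all windows) were lower and 1560 higher (7.13%, against 21.4%). Lower windows made up 28.9% of the windows in the lowest quartile, 37.4% in the second, 32.8% in the third and 19.9% in the highest, and higher windows 16.6%, 8.37%, 2.66% and 1.92%. No start, and no other autosomal bin, was called in 2-kb bins when either serum or either LT2i library was left out, which left a single library in that condition.

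The starts of genes whose expression changed by 24 h were followed separately, to ask whether H3K9me2 moved with expression. Limma called 1554 of 11376 genes tested higher at 24 h (13.7%) and 1296 lower (11.4%), at an adjusted p under 0.05 and a log2 change of at least 1. The 1134 starts of lower genes with a bin stood at 16.1 and 15% of the genome mean in serum, 18.2 and 17.4% at 24 h and 16.9 and 15.4% in LT2i. The 1431 starts of higher genes stood at 22.3 and 20.1% in serum, 23.1 and 23.4% at 24 h and 18 and 17.2% in LT2i. The starts of genes that rose were already the fuller ones in serum, without overlap, and these genes also had the lower median serum expression (1.90, against 3.33 in genes that fell and 2.90 in the others). The 7749 starts of the other tested genes stood at 17.1 and 15.9% in serum, 18.7 and 18.7% at 24 h and 16.3 and 15.7% in LT2i. The change in centred bound values, without the input, from serum to 24 h differed between lower and higher genes by 0.07 on the log2 scale. It differed by 0.02 with the common floor (exact permutation p = 0.333 for the first). A p of this size does not show that the classes changed alike.

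Start bins with an enrichment of -2 or lower in both libraries of a condition are called depleted here. They made up 8.38% of all autosomal bins in serum and 16.9% (882) of starts in the lowest quartile, 34.8% (1870) in the second, 68.5% (3875) in the third and 81.1% (4694) in the highest. Starts at or above the genome median in both serum libraries went the other way, from 32.3% in the lowest quartile to 17.5%, 3.36% and 2.00%, against 41.6% of all bins. At 24 h the depleted shares were 16.5, 32.9, 64.1 and 76.6% against a background of 9.0%, and in LT2i 24.1, 45, 71.7 and 80.9% against 16.7%. In LT2i the share in the lowest quartile thus stood above that in serum, as did the share of all bins.

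Lists of genes with known roles showed which starts filled each end. Pluripotency genes (19 of 20 with a bin) had a median serum expression of 6.07 and a median enrichment of -3.66, with 14 depleted (73.7%). Over all starts the median was -2.58 and 11321 were depleted (51.4%). In the list, 18 starts were in the highest quartile, where 81.1% of starts were depleted. The list was thus not depleted more often than that quartile. Nanog, a core pluripotency factor, held 7 and 5 reads in serum, 5 and 3 at 24 h and 3 and 1 in LT2i, against 25, 32 and 27 in the inputs. Esrrb, a nuclear receptor of the naive network, was the fullest of the list, with 24 and 13 reads in serum, 8 and 12 at 24 h and 4 and 4 in LT2i. Its serum and LT2i libraries did not overlap, and limma gave a change of -1.84 ± 0.53 in bound values (SE, adjusted p = 0.038), while enrichment over the input went from -0.86 to -2.0. Lin28a, an RNA-binding protein that blocks let-7 maturation, held no reads in serum and 3 and 2 in LT2i and was called higher (limma adjusted p = 0.038), with no fold given for these few reads. Esrrb and Lin28a were the list's 2 calls in LT2i (5.26% lower and 5.26% higher, near the 6.34% and 5.60% of all bins).

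Housekeeping genes (18, of which 17 were in the highest quartile) had a median enrichment of -4.09 with 16 depleted (88.9%). They lay at 7.58 and 6.67% of the genome mean in serum. Hsp90ab1, a cytosolic chaperone, held 1 and 0 reads in serum against 29 in the input. Ldha, lactate dehydrogenase A, was the fullest of the list, with 6 and 7 reads in serum, 4 and 3 at 24 h and 1 and 0 in LT2i, and was called lower (limma, -2.47 ± 0.61, SE, adjusted p = 0.022), the list's only call (5.56%, against 6.34% of all bins). The serum and LT2i libraries of Ldha did not overlap.

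Lineage transcription factors (22) were depleted about as often as the housekeeping genes at far lower expression, with 6 in the lowest, 8 in the second and 8 in the third quartile. Their median serum expression was -2.46, their median enrichment -4.27, and 19 of 22 were depleted, at 11.2 and 10.4% of the genome mean in serum. Olig2, whose CpG-dense promoter is printed above, held 2 and 2 reads in serum, 0 and 1 at 24 h and 2 and 0 in LT2i. Pax3 and Pax7, paired-box factors of neural crest and muscle progenitors, held 1 and 1 and 0 and 1 reads in serum. Pax6, a factor of eye and neural progenitors, held 2 and 1 in serum, 4 and 2 at 24 h and 8 and 5 in LT2i, and was the list's only call (limma, 2.47 ± 0.65, SE, adjusted p = 0.029; 4.55% higher, against 5.60% of all bins). The 3 exceptions were Gata4, a factor of endoderm and heart, with enrichments of -0.51 and -0.07 in serum, Sox17, an endoderm factor, with -0.78 and -1.58, and Myod1, the muscle determination factor, with -1.08 and -2.66.

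Tissue products, the secreted or structural proteins of differentiated cells (22 of 24 with a bin), were the reverse case, also at low expression. Their median serum expression was -4.18, their median enrichment -0.07, and 1 was depleted while 8 were at or above the genome median in both serum libraries. They lay at 101 and 104% of the genome mean in serum, and the median ratio of observed to expected CG was 0.18 over the 13 starts with a matched promoter, against 0.65 over 12 of the lineage factors and 0.93 over 11 of the housekeeping genes. Myl2, a myosin light chain of heart muscle, was the depleted one, with 4 and 4 reads against 20 in the input. Alb held 34 and 32 reads in serum, 22 and 27 at 24 h and 56 and 47 in LT2i, and was called higher (limma, 0.94 ± 0.23 in bound values, SE, adjusted p = 0.022), while its enrichment over the input went from 0.72 to 1.10. Its serum and LT2i libraries did not overlap. The list had 2 starts called lower (9.09%, against 6.34% of all bins) and 1 called higher (4.55%, against 5.60%) in LT2i, with a median change of -0.22, against 0.11 over all starts.

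Germ line genes (15), whose promoters are CpG-rich and methylated in somatic cells, lay between the lineage factors and the tissue products in median enrichment. Their median CG ratio was 0.73 and their median serum expression 1.03, while the median enrichment was -0.95, 1 was depleted and 2 (13.3%, as in all starts) were at or above the genome median in both serum libraries. The starts lay at 77.3 and 66.9% of the genome mean in serum, 82.9 and 84.4% at 24 h and 103 and 83.3% in LT2i. Asz1 held 26 and 18 reads in serum, 22 and 21 at 24 h and 39 and 32 in LT2i, and was the list's call (limma, 1.01 ± 0.26, SE, adjusted p = 0.026; 6.67% higher, against 5.60% of all bins). Ddx4, the germ cell RNA helicase Vasa, held 16 and 12 reads in serum and 18 and 19 in LT2i, and Mael, another gene of the piRNA pathway, 16 and 15 and 23 and 26. Both were higher in the LT2i libraries without overlap but were not called (limma adjusted p = 0.217 and 0.0658), and both were in the highest quartile of serum expression. Stra8, which is needed for entry into meiosis, was the depleted one, with 3 and 2 reads in serum against 20 in the input.

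Genes of DNA methylation and H3K9 methylation (16) had a median enrichment of -2.90, with 9 depleted (56.3%). In this list 15 starts were in the highest quartile, where 81.1% of starts were depleted. Ehmt1 and Ehmt2, which write the mark, were nearly empty at their own starts, with enrichments of -4.46 and -4.61 and of -4.32 and -4.47 in serum. Dnmt3l, the cofactor of de novo DNA methylation, stood at -0.67 and -0.75, and Kdm4c, a demethylase of H3K9, at -0.81 and 0.44, so their starts were among the fullest of the highest quartile in this list. Tet1, which oxidises methylated cytosine, held 5 and 4 reads in serum, 1 and 1 at 24 h and 1 and 0 in LT2i, and was the list's call (limma, -1.93 ± 0.54, SE, adjusted p = 0.033; 6.25% lower, against 6.34% of all bins).

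Olfactory and vomeronasal receptor genes, large tandem families of sensory neurons, had a bin for 1038 of 1428 starts. Of these, 903 were in the lowest quartile and 1008 were classed as without serum RNA reads. None was depleted in serum, and 528 (50.9%) were at or above the genome median in both serum libraries, against 13.3% of all starts. Their starts lay at 104 and 111% of the genome mean in serum, 114.3 and 114.6% at 24 h and 124 and 130% in LT2i, with LT2i above serum and 24 h in both libraries. Limma called 86 higher (8.29%, against 5.60% of all bins) and 12 lower (1.16%, against 6.34%) in LT2i. After quantile normalization 1 was higher (0.0963%, against 0.201% of all bins) and 1 lower (0.0963%, against 0.477%). Without variance trend 5 were higher (0.482%, against 0.617%) and 6 lower (0.578%, against 4.83%), so higher calls were not in excess in either fit. Higher calls were more frequent than in all bins with 4 scaled reads added (77, 7.42%, against 49361 of all 995960 bins). The same held with the common floor (51, 4.91%, against 32027) and with the replicate block (92, 8.86%, against 60674). Lower calls in these fits were 9, 7 and 15, against 51528, 38445 and 66204 of all bins. In windows of 10 kb 398 of 1001 were higher (39.8%, against 21.4% of all windows) and 32 lower (3.2%, against 26.0%). Copies of these families resemble each other in sequence, so reads can be placed in the wrong member and values of single members are uncertain.

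**Figure D5:**
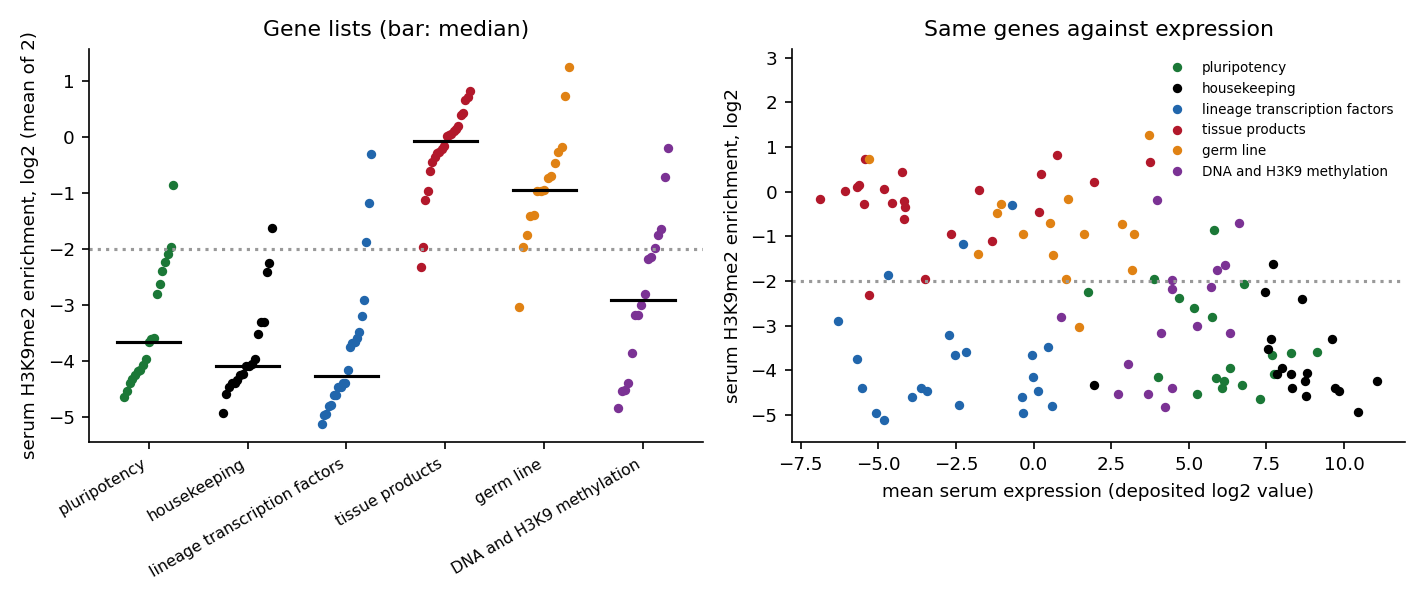
Mean serum enrichment (log2, mean of 2 libraries) at the starts of 6 gene lists, each dot 1 gene and each bar the list's median (left), and the same genes against mean serum expression (right). The dotted line marks -2; 19 of 22 lineage transcription factors are depleted at low expression (median -4.27), where tissue products lie near 0 (median -0.07).

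A few starts stood far from their quartile. In the highest quartile, among starts with a mean of at least 20 scaled reads in the inputs, the 4 with the most H3K9me2 in serum were Rrm1, Mcm3, the pseudogene Rpl27a-ps2 and the gene model CAAA01064128.1. Rrm1, the large subunit of ribonucleotide reductase, held 36 and 44 reads in serum, 27 and 40 at 24 h and 62 and 65 in LT2i, against 13, 32 and 16 in the inputs. Its start bin (chr7:102440001-102442000, GRCm38) extends 305 bp downstream of the start. Mcm3, a subunit of the replicative helicase, held 26 and 26 reads in serum, 28 and 31 at 24 h and 39 and 32 in LT2i, against 10, 28 and 15 in the inputs, and its start bin (chr1:20820001-20822000, GRCm38) extends 277 bp downstream. Limma gave 0.98 ± 0.25 (SE, adjusted p = 0.026) for Rrm1 and 0.75 ± 0.24 (adjusted p = 0.0502) for Mcm3 in LT2i on bound values. Enrichment over the input went from 1.61 to 1.99 at Rrm1 and from 1.38 to 1.24 at Mcm3, the opposite direction, and windows of 10 kb gave -0.54 and -0.16 with no call. Reads of a pseudogene and its parent gene can be exchanged, so the expression of Rpl27a-ps2 is uncertain.

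At the other end, the emptiest starts of the lowest quartile by the same rule were those of Pcdhb19, Otp, Gm9924 and 2410133F24Rik. With so few reads this rank rests largely on the input and on the value given to an empty bin. Gm9924 (1 and 1 reads in serum, 37 in the input) thus ranked as emptier than 2410133F24Rik (0 and 0, with 32). Otp, a homeobox factor of hypothalamic neurons, was classed as without serum RNA reads. Its start bin held 1 and 1 reads in serum, 0 and 1 at 24 h and 0 and 2 in LT2i, against 36, 25 and 23 in the inputs (chr13:94874001-94876000, GRCm38). Its promoter had a CG ratio of 0.78. Pcdhb19 belongs to the clustered protocadherins of neurons and held 0 and 1 reads in serum against 39 in the input.

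The largest called rises from serum to LT2i were at start bins that were nearly empty in serum. The bin shared by the starts of Xkr6 and Gm15918 (chr14:63606001-63608000) held 0 and 1 reads in serum, 1 and 0 at 24 h and 16 and 7 in LT2i, a depth-corrected ratio of 25.7 with a 95% counting interval of 4.18 to 1060 (limma, 3.78 ± 0.60, SE, adjusted p = 0.0105). Rexo4, in the highest quartile (chr2:26964001-26966000), held 1 and 2 reads in serum, 2 and 1 at 24 h and 11 and 12 in LT2i (ratio 8.58, interval 2.59 to 44.6, limma adjusted p = 0.0125). Prpf8, the core protein of the spliceosome (chr11:75486001-75488000), held 1 and 1, 4 and 2, and 8 and 7 reads (ratio 8.4, interval 1.95 to 75.7, limma adjusted p = 0.0122). The intervals cover counting error only. By the rule that chose these bins their LT2i libraries lay outside the range of serum, and in all 3 they also lay outside that of 24 h. The changes named here were picked as the largest from these same reads, and the ratios and intervals do not allow for that choice. The 4 largest falls were at predicted genes (Gm15774, Gm15907, Gm13402 and Gm12272), whose serum libraries held 41, 41, 40 and 35 reads in sum and whose LT2i libraries held 1, 1, 1 and 0 (limma, -4.13 to -3.93, adjusted p = 0.0105 for each). Sizes at nearly empty bins rest on the value given to a bin without reads, and with 4 scaled reads added these falls were -2.34 to -2.13 and the rises at Xkr6, Rexo4 and Prpf8 were 1.99, 1.90 and 1.58, all still called. Each called gene named in this and the gene list paragraphs lost its call when a serum or an LT2i library was left out. Some lost it in other settings too. Of 16 alternatives, limma kept an adjusted p under 0.05 in 11 for Prpf8, Ldha and Tet1 and in 10 for Esrrb, Lin28a and Alb. It did so in 9 for Asz1 and 8 for Rrm1, against 12 for Xkr6, Rexo4, Pax6 and the 4 falls. These counts include the fit without a filter on input reads and the one with a minimum log2 change of 1. Neither could alter the adjusted p, and the changes at Alb and Rrm1 were under that minimum.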

How the data were processed

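RNA-seq of 12 and H3K9me2 ChIP-seq of 9 of the 80 samples in the series were used; 59 bisulfite samples were not used here. For both tables the authors deposited log2 values. Expression was corrected for gene length and depth and set to a common 75th percentile. ChIP-seq values were read numbers of 2-kb bins on the log2 scale, brought up to the largest library, where an empty bin stood as 0.9 reads. All ChIP-seq values came out whole within 2% once the scaling was undone, which gave the reads per library. Coordinates fit GRCm38. The submitters' processing notes name Trim Galore 0.3.5, TopHat2 2.0.11, Bismark 0.12.3 and Bowtie2; the sources used here do not give which of these made each table. Columns were matched to samples by their labels.

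Values were centred on the autosomal median of each library. Bins needed 5 scaled reads in the mean of the inputs, which removed 0 bins. Quartile differences were tested by exact two-sided sign flips over the 6 bound libraries (64 arrangements) with Benjamini-Hochberg adjustment. Single bins were tested in limma 3.58.1 (R 4.3.3, trended variance) on bound values of all autosomal bins, called at an adjusted p under 0.05, after the fit was tested on simulated data. Expression was tested in limma on 11376 genes with a mean of 0 or more. Summaries used Python 3.11.15 (numpy 2.4.6, pandas 2.3.3, scipy 1.17.1, matplotlib 3.10.9). Ratios of reads have 95% counting intervals. The genes named were members of the lists, the 4 starts of the highest quartile with the most and the 4 of the lowest with the least serum enrichment among those with 20 or more scaled input reads, and the 4 largest called rises and falls per contrast with libraries outside the serum range. The members and lists were chosen with earlier results of these data known. Alternatives covered the input, the scale, filters, the pseudocount, normalization, shared bins, neighbouring starts and each library left out; the common floor and the split of CpG classes by serum reads were added after seeing the data.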

Additional observations from a re-analysis of the deposited data

How the results depend on the processing

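All 10 differences between quartiles, between start and flanks, along long genes and between CpG classes kept their sign under every alternative run for them. With 1 library left out, 5 libraries cannot give an exact p below 0.0625, so only sizes are compared there. Leaving out single libraries gave -2.53 to -2.43 for the highest minus the lowest quartile, -0.90 to -0.86 for the second minus the lowest, -1.23 to -1.16 for the third minus the second and -0.44 to -0.39 for the highest minus the third. It gave -0.41 to -0.39, -0.69 to -0.65, -1.36 to -1.22 and -1.28 to -1.09 for the start minus its flanks from the lowest to the highest quartile. It gave -1.02 to -0.97 for downstream minus upstream in long genes and -2.23 to -2.16 for CpG-rich minus CpG-poor starts. Starts called in LT2i numbered 0 to 1598 with 1 library left out (0 without serum replicate 1, serum replicate 2, LT2i replicate 1 or LT2i replicate 2, where the lone library was assumed to vary like the other groups), 138 after quantile normalization, 995 with the common floor, which was chosen after seeing the data, and 8036 in windows of 10 kb, against 1652 as reported. At 24 h, windows of 10 kb gave 9 calls. The changes at Rrm1 (-0.54) and Mcm3 (-0.16) reversed in windows of 10 kb; the cause was not tested. Same-numbered libraries deviated together by correlations of 0.002, 0.027 and 0.001 in H3K9me2, so the numbers were not taken as pairs; with the replicate number as a block, 1731 starts were called in LT2i and 0 at 24 h, and the difference between genes lower and higher at 24 h was 0.07. Start bins of the highest quartile held a mean of 2.14 to 2.76 reads, which limits how far most single starts there can fall.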
